A study of Homo sapiens with 6 samples.

Results

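The transcripts described here come from 9 genes that p53 is known to induce, MDM2, MDM4, CDKN1A, GDF15, SESN1, ZMAT3, RRM2B, XPC and DDB2, out of 22412 genes tested. They were chosen by name, each stood on a single row of the array table, and all 9 were measured. These genes and the lists below were chosen with earlier results of these data known. Their shares beside those of all tested genes are therefore descriptions. RNA was taken from SW480 cells, an established epithelial line from a human colorectal adenocarcinoma of the colon. For 3 arrays the cells had been transfected with an siRNA against KHSRP and for 3 with a scramble siRNA that targets no gene, in each case 30 pmol delivered by 2 µl of a lipid transfection reagent for 48 h. KHSRP encodes a KH-domain protein that binds AU-rich elements and is known to speed the decay of the transcripts that hold them. Values are log2 intensities as deposited, made with RMA according to the submitters' notes, a method that corrects background, equalises arrays and summarises probes.

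The protein p53 is a transcription factor that is stabilised after DNA damage and other stresses and binds a consensus element near its target genes. Those targets halt the cell cycle, repair DNA, adjust metabolism or kill the cell, and MDM2, itself a target, marks p53 for destruction and so closes a feedback loop. SW480 is known as a line with missense mutations of p53 and an accumulated mutant protein, and many of these genes also respond to factors other than p53. The p53 status of the line is background, and the arrays were not used to check it.

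Promoter sequences are shown for the members in whose windows a p53 consensus element was found, and for the other MDM2 promoter as a contrast. The windows are those of RefSeq on GRCh38.p14, from 250 bases before to 50 bases after a gene start, and they were matched by symbol, while the array annotation is on hg19. The table held 15 windows for 8 of the 9 members. The search used the p53 response element consensus, a pair of decamers at a spacing of 0 or 1 bases, with the C and G of each core kept and at most 3 mismatches in all. The consensus reads the same on both strands. A match lay in 5 of the 15 windows, belonging to MDM2, DDB2, GDF15 and SESN1, and in 2.38% of all 35116 windows of that length. The members are known p53 targets, so this count is a description of the choice. A match is a description of letters, and no match says only that these letters are not in this window.

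MDM2 is transcribed from 2 promoters. The 250 bases before an upstream start on the plus strand, chr12:68807922-68808171, held no match, and those before a start in the downstream promoter, chr12:68808767-68809016, held 1 with 2 mismatches, beginning 94 bases before the start and shown in capitals. A further annotated start 7 bases downstream shares that match.
MDM2 upstream promoter: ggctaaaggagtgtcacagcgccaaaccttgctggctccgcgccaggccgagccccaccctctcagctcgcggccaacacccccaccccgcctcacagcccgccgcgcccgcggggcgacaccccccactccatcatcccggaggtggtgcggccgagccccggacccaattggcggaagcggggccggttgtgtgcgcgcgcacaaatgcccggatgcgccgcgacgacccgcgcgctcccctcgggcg
MDM2 downstream promoter: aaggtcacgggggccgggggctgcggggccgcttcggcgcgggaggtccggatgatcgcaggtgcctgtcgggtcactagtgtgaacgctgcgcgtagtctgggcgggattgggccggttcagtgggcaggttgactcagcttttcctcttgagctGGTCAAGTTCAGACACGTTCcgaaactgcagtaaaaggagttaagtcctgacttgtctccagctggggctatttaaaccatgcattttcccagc
SESN1 has 3 windows. The 250 bases before its most downstream start, on the minus strand at chr6:109008989-109009238, held a match with 3 mismatches, again in capitals.
SESN1 downstream promoter: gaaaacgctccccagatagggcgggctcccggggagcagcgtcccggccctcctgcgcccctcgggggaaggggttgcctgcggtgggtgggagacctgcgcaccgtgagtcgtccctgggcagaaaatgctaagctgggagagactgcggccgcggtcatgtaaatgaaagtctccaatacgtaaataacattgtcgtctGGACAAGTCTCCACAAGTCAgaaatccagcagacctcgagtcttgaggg
In DDB2 and GDF15 the match began after the start, at bases 6 and 29 of the transcript, on the plus strand at chr11:47214979-47214999 and chr19:18386186-18386205. The DDB2 window held 2 overlapping matches, of which the one with fewer mismatches is printed. It had 0 mismatches and a spacing of 1 base, the GDF15 element had 3 mismatches, and the capitals mark the core C and G.
DDB2 element: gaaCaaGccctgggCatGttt
GDF15 element: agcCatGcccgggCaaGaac

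The arrays were alike as a whole, with medians from 4.30 to 4.38 and Pearson correlations over all rows from 0.984 to 0.991. The KHSRP row, which also carries the annotation of MIR3940, read 5.62, 5.60 and 5.56 in the arrays labelled KHSRP siRNA and 5.75, 5.59 and 5.64 in those labelled scramble siRNA (log2 fold change -0.07, SE 0.08, limma adjusted p = 0.804). The 95% interval ran from 83.6% to 109% of the scramble level. A lower level of the siRNA target was thus not seen on this row. The row did not bear out the labels, and groups are called below by what they are labelled. Of 12 epithelial and colonic markers, CDH1, CDX2, EPCAM, KRT8, KRT18 and KRT19 stood in both groups above 4.73, the 95th percentile of 366 olfactory receptor genes, used here as the background level. KRT20, VIL1, CDX1, GPA33, LGALS4 and CEACAM5 did not. None of 7 fibroblast markers stood above it, of 6 endothelial markers only ESAM did, and of 7 leukocyte markers only CD68 did. The mean over the epithelial markers lay between 7.10 and 7.19 on KHSRP siRNA arrays and between 6.92 and 6.98 on the others. Among the markers above the background level, the log2 fold changes of KRT8, KRT19 and KRT18 were 0.58, 0.55 and 0.49. Those of EPCAM, CDH1 and CDX2 were 0.08, 0.03 and -0.09. The part of this difference in the results below was not tested. Limma, a linear model with a spread shared across genes, called 170 genes at a Benjamini-Hochberg adjusted p under 0.05, or 0.759% of those tested. With 1 array left out that number ran from 0 (without KHSRP siRNA replicate 2 or 3, or scramble replicate 2 or 3) to 329 (without KHSRP siRNA replicate 1), with 1 call without scramble replicate 1.

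None of the 9 members passed limma's adjusted threshold, and 5 of 9 had an unadjusted p under 0.05, where 14.4% of all tested genes did. These were DDB2 and GDF15, fitted higher with KHSRP siRNA (8.51% of all tested genes), and MDM2, XPC and SESN1, fitted lower (5.89%). Among the 11346 genes above the background level 23.8% had such a p in either direction. Of the 9 members 8 stood above that level and GDF15, counted here among the 9, did not. For 6 of the 9 the arrays of one label did not overlap those of the other, against 19.4% of all tested genes and 27.8% of those above the background level. Of these 6, MDM2, XPC, SESN1 and RRM2B were the lower ones with KHSRP siRNA (7.82% of all tested genes did so without overlap) and DDB2 and GDF15 higher (11.6%), GDF15 under the background level. The members' median log2 fold change was -0.17, beside 0.02 over all tested genes, and 6 of 9 were fitted below 0, where 55.0% of all genes were fitted above 0. MDM2 differed most, at 62.3% of the scramble level. The arrays measured RNA of whole cultures, in which fewer cells expressing a gene and less RNA per cell cannot be told apart.

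**Figure D1:**
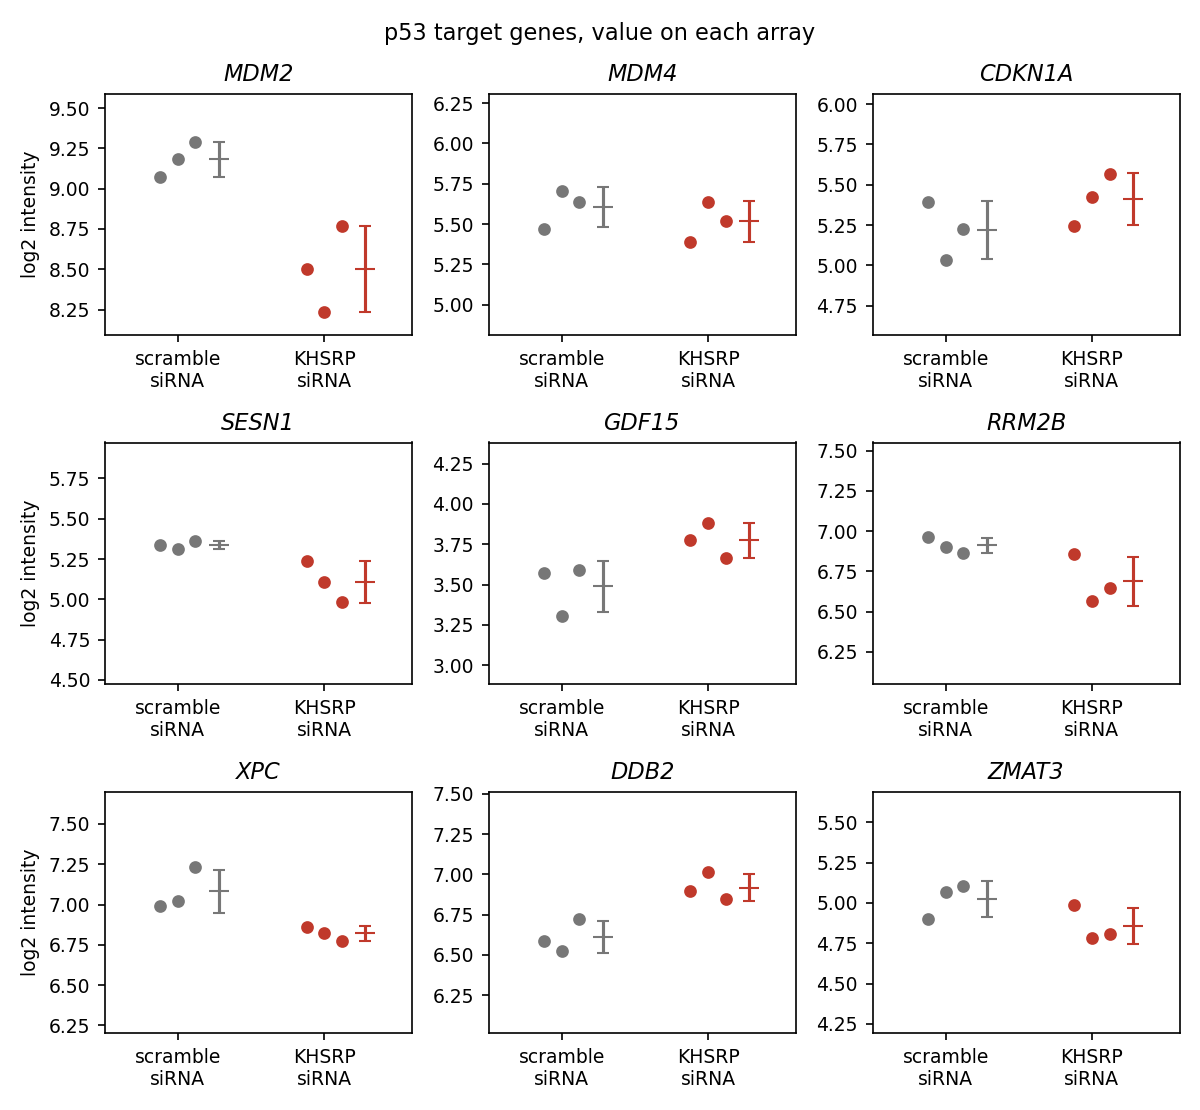
Log2 intensity (vertical axis) of each of the 9 genes on every array, with scramble siRNA in grey, KHSRP siRNA in red, points for replicates 1 to 3 from left to right, and bars for the mean ± SD (n = 3). Every panel spans the same range of log2 units around the gene's own mean, and the MDM2 groups stand farthest apart, at means of 9.18 and 8.50.

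The feedback regulators of p53 came first. MDM2, the ubiquitin ligase that marks p53 for the proteasome, read 9.07, 9.18 and 9.29 in the 3 arrays labelled scramble siRNA and 8.50, 8.23 and 8.77 in those labelled KHSRP siRNA. All 3 KHSRP siRNA arrays lay under the lowest scramble array, by at least 0.31, and replicate 2 was the lowest of all 6. Means were 9.18 ± 0.11 (SD, n = 3) and 8.50 ± 0.27 (SD, n = 3), a log2 fold change of -0.68 (SE 0.14). The adjusted p of limma was 0.0827, so the difference did not pass, and the 95% interval ran from 49.4% to 78.6% of the scramble level. By fold change MDM2 stood 150th from the lowest of the 22412 tested genes. The row does not separate transcripts of the upstream promoter printed above from those of the downstream promoter, where the consensus match lay. Elements outside the rule of the search were not looked for.

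MDM4, the relative of MDM2 that binds p53 and blocks its activity, did not follow it. The arrays labelled scramble siRNA read 5.47, 5.71 and 5.64 and those labelled KHSRP siRNA 5.39, 5.64 and 5.52. The groups overlapped, and replicate 1 was the lowest array in each. The log2 fold change of -0.09 had an SE of 0.10 (limma adjusted p = 0.806), with an interval from 79.5% to 111% of the scramble level. PPM1D, the phosphatase that switches off p53 signalling and a p53 target as well, had a log2 fold change of 0.08 (SE 0.15, adjusted p = 0.903), and TP73, the gene of a p53 relative, lay under the background level in both groups (4.31 and 4.37).

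CDKN1A encodes p21, the inhibitor of cyclin-dependent kinases through which p53 halts the cell cycle. It read 5.40, 5.03 and 5.23 with scramble siRNA and 5.25, 5.42 and 5.57 with KHSRP siRNA. The groups overlapped, since scramble replicate 1 lay above KHSRP siRNA replicate 1. The log2 fold change of 0.19 had an SE of 0.13 (limma adjusted p = 0.576) and an interval from 93.3% to 140% of the scramble level. Its value was 0.10 without scramble replicate 2 and 0.28 without scramble replicate 1.

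SESN1, a sestrin that restrains the growth kinase complex mTORC1, read 5.33, 5.31 and 5.36 with scramble siRNA and 5.24, 5.11 and 4.98 with KHSRP siRNA. The scramble arrays lay close together and all above the KHSRP siRNA arrays, by 0.07 at the narrowest. The log2 fold change of -0.23 had an SE of 0.09 (limma adjusted p = 0.310). GDF15, a secreted ligand of the TGF-beta family known as a stress signal, read 3.57, 3.31 and 3.59 against 3.78, 3.88 and 3.66. The KHSRP siRNA arrays were the higher ones, with a log2 fold change of 0.28 (SE 0.11, adjusted p = 0.294). All 6 values lay under the background level of 4.73, so GDF15 was not detected apart from background and its difference cannot be read as a level of transcript.

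**Figure D2:**
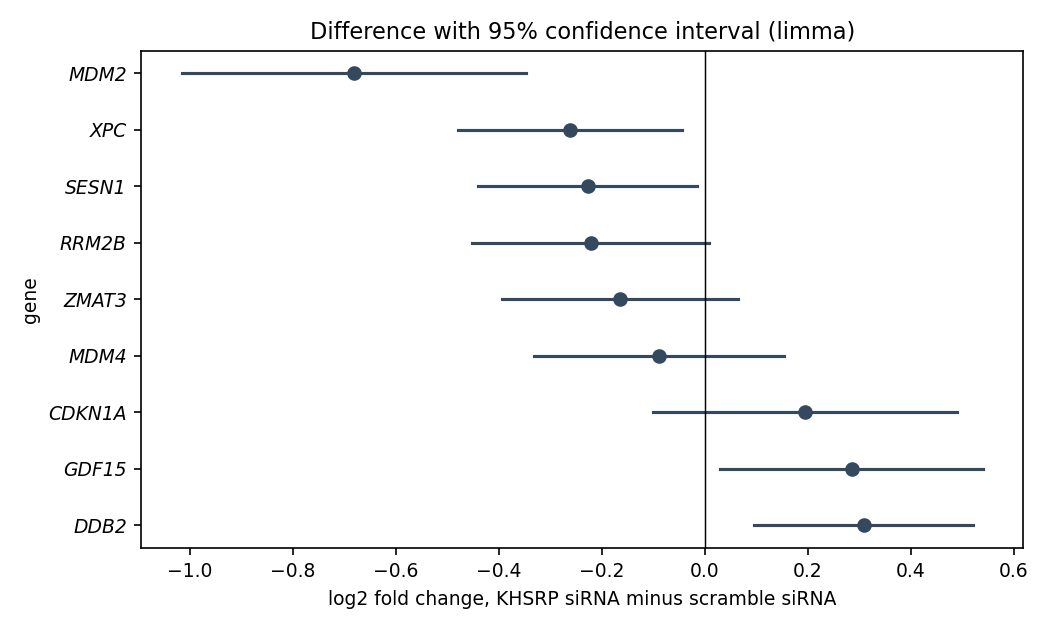
Log2 fold change of each member gene, KHSRP siRNA minus scramble siRNA (horizontal axis), with limma's 95% confidence interval from 3 arrays per group. MDM2, at -0.68, has the interval farthest from 0, and those of MDM4, CDKN1A, ZMAT3 and RRM2B include 0.

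The repair genes lay on both sides of 0. XPC, which recognises distorted DNA at the start of nucleotide excision repair, read 6.99, 7.02 and 7.24 with scramble siRNA and 6.86, 6.82 and 6.77 with KHSRP siRNA. No KHSRP siRNA array reached the lowest scramble array, and the log2 fold change of -0.26 had an SE of 0.09 (limma adjusted p = 0.254). DDB2, which binds ultraviolet lesions in chromatin and hands them to XPC, went the other way, with 6.58, 6.52 and 6.72 against 6.90, 7.01 and 6.85. All KHSRP siRNA arrays lay above all scramble arrays. The log2 fold change was 0.31 (SE 0.09, adjusted p = 0.181), or 124% of the scramble level with an interval from 107% to 144%.

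RRM2B, the p53-induced subunit of ribonucleotide reductase that supplies nucleotides for repair, read 6.96, 6.90 and 6.87 with scramble siRNA and 6.86, 6.56 and 6.64 with KHSRP siRNA. The groups were apart by only 0.009, between scramble replicate 3 and KHSRP siRNA replicate 1. The log2 fold change of -0.22 had an SE of 0.10 (limma adjusted p = 0.368), and -0.31 without KHSRP siRNA replicate 1. ZMAT3, a zinc-finger protein that binds RNA, read 4.90, 5.07 and 5.10 against 4.99, 4.78 and 4.81, and the groups overlapped through replicate 1 of each. The log2 fold change was -0.17 (SE 0.10, adjusted p = 0.527).

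Of the members with a consensus element in a promoter window, MDM2 and SESN1 were fitted below 0 and DDB2 above, and GDF15 lay under the background level. Among the other 5, CDKN1A was fitted above 0 and MDM4, ZMAT3, RRM2B and XPC below, and RRM2B had no window in the table. All 9 members kept the sign of their difference in every alternative that was run, and none passed the adjusted threshold in any. Several of those alternatives could not change a sign. Settings that alter only the error estimate, the genes compared or the choice of rows gave each member the same difference. Leaving out 1 array cannot reverse a member whose groups did not overlap. MDM2 was at -0.82 when KHSRP siRNA replicate 3 was left out and at -0.55 when replicate 2 was, with its smallest adjusted p, 0.0511, among genes above the median level and its largest, 0.257, without scramble replicate 3. DDB2 ran from 0.25 to 0.36 and XPC from -0.31 to -0.19, with smallest adjusted p-values of 0.128 and 0.138. MDM4 ran from -0.16 to -0.02.

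**Figure D3:**
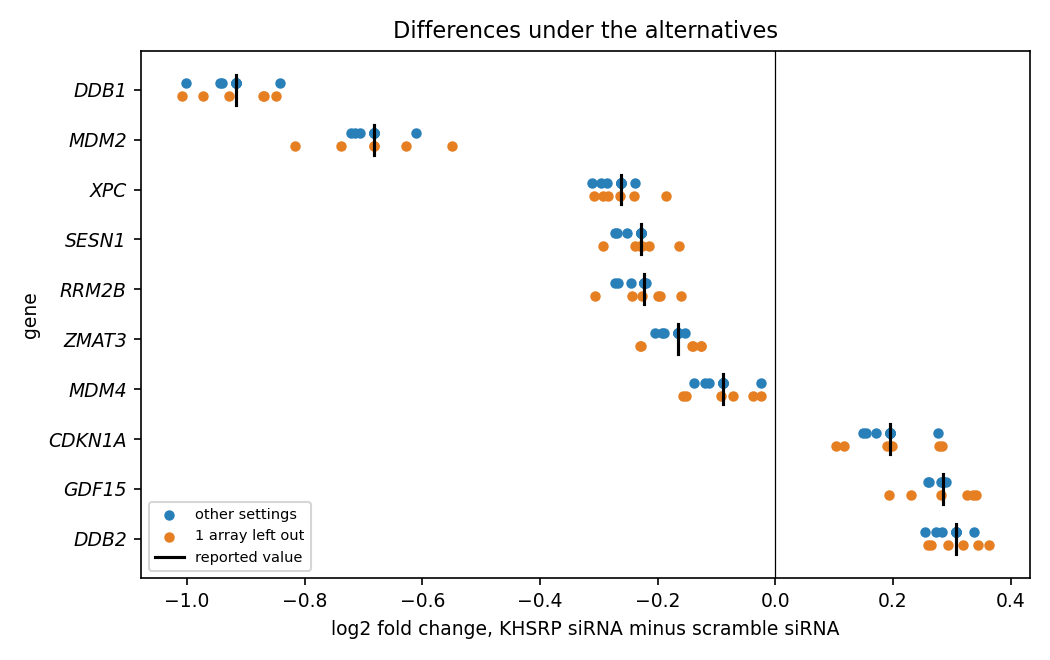
Log2 fold change, KHSRP siRNA minus scramble siRNA (horizontal axis), of the 9 members and of DDB1, with the reported value as a black line, fits that leave out 1 array in orange and other settings in blue. No point of a member crosses 0, MDM2 runs from -0.82 to -0.55, and GDF15 has no value among genes above the median level.

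A direct partner of DDB2 passed the threshold. DDB1, which joins DDB2 in the damage-binding complex and links it to a ubiquitin ligase, fell in the arrays labelled KHSRP siRNA. It read 10.31, 10.58 and 10.58 with scramble siRNA and 9.60, 9.69 and 9.44 with KHSRP siRNA, so the highest KHSRP siRNA array lay 0.62 under the lowest scramble array. Its log2 fold change of -0.92 had an SE of 0.11 (limma adjusted p = 0.0438), while DDB2 stood at 0.31. The DDB1 value ran from -1.01 to -0.84 over the alternatives and passed the threshold in 6 of 15 of them. The call held without KHSRP siRNA replicate 1 (adjusted p = 0.0387) and was lost without any other single array (0.0585 to 0.156). CUL4A, the cullin of that ligase, named here after its values were seen, was at -0.47 (SE 0.09, adjusted p = 0.0711), with 8.94, 9.01 and 8.98 against 8.62, 8.54 and 8.36. Of 14 measured excision repair genes that act with XPC and DDB2, DDB1 alone was called, and 6 had an unadjusted p under 0.05, 1 fitted higher and 5 lower. Over all tested genes 0.759% were called and 14.4% had such a p, or 23.8% among genes above the background level. RAD23B, which stabilises XPC, was at 0.06 (SE 0.08), and CETN2, the centrin of the XPC complex, at 0.31 (SE 0.16). The list's median was -0.04 (-0.12 without scramble replicate 3 and 0.0067 without scramble replicate 2).

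Around RRM2B, none of 8 measured genes of ribonucleotide reductase and nucleotide supply was called by limma, and 2 had an unadjusted p under 0.05. These were SAMHD1, fitted lower, and the thymidine kinase gene TK1, fitted higher at 0.32. Over all tested genes 14.4% had such a p, or 23.8% among genes above the background level. RRM2, the subunit of the reductase used in S phase, was at -0.24 (SE 0.13, adjusted p = 0.508). SAMHD1, an enzyme that breaks down deoxynucleotides, read 8.73, 8.67 and 8.50 against 8.10, 8.11 and 8.11 (log2 fold change -0.53, SE 0.09, adjusted p = 0.0530), just outside the threshold. TYMS and DTYMK, of thymidylate synthesis, were at -0.04 and -0.01. The median was -0.05 (-0.16 without KHSRP siRNA replicate 1). Around SESN1, none of 13 genes of sestrins and mTORC1 control was called, and 3 had an unadjusted p under 0.05, all fitted below 0. SESN3 read 8.67, 8.63 and 8.64 against 8.41, 8.43 and 8.33 (-0.26, SE 0.08, adjusted p = 0.177), and SESN2, a target of both p53 and ATF4, was at -0.06 (SE 0.09) close to the background level. SEH1L, shared by the nuclear pore and the complex that relays sestrin signals, was at -0.31 (SE 0.09), and TSC1, a brake on mTORC1, at -0.17 (SE 0.17). The list's median was -0.12 (-0.18 without scramble replicate 1 and -0.053 without scramble replicate 3).

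Other p53-induced genes, 71 measured of 82 written in 5 lists, gave 1 call by limma, or 1.41%, beside 0.759% of all tested genes. The call was TNFRSF10D, a decoy receptor for the death ligand TRAIL, which fell by 1.10 on the log2 scale (SE 0.17), with means of 7.84 ± 0.32 under scramble siRNA and 6.73 ± 0.14 under KHSRP siRNA (adjusted p = 0.0473, called in 4 of 15 alternatives). That call was lost without any single array (0.0585 to 0.169). At an unadjusted p under 0.05 there were 21, or 29.6%, beside 14.4% of all tested genes and 23.8% of those above the background level. Of the 21, 16 were fitted higher and 5 lower, and over all tested genes these shares were 8.51% and 5.89%. In 22 of the 71, or 31.0%, the groups did not overlap, beside 19.4% of all tested genes and 27.8% of those above the background level. The median log2 fold change of the 71 was 0.06, beside 0.02 over all tested genes. Of the 71, 48 were fitted above 0 and 23 below, where 55.0% of all tested genes were fitted above 0. The same shares over all tested genes stand beside the lists by role below.

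By role, the 16 measured genes of arrest and feedback had 0 calls, 7 at an unadjusted p under 0.05 and a median of 0.14 (0.11 without KHSRP siRNA replicate 2). Among the brightest, CCNG1, a cyclin that restrains p53, was at -0.39 (SE 0.13, limma adjusted p = 0.231), and CCNK and SFN were at 0.34 (SE 0.14) and 0.20 (SE 0.08). The 20 genes of cell death had TNFRSF10D as their only call. At an unadjusted p under 0.05, 4 were fitted higher and 3 lower, TNFRSF10D among the lower ones. The median of the 20 was 0.05 (0.086 without scramble replicate 3). PMAIP1, which encodes the BH3-only protein NOXA, read 8.40, 8.40 and 8.70 against 8.94, 9.34 and 9.40 (0.72, SE 0.15, adjusted p = 0.0774), and its groups did not overlap. EI24 and TRIAP1 were at 0.05 (SE 0.09) and 0.20 (SE 0.13).

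The 16 metabolic targets had 0 calls by limma, 1 gene at an unadjusted p under 0.05 and a median of 0.04 (-0.014 without scramble replicate 2 and 0.064 without scramble replicate 3), with the lysosomal fucosidase gene FUCA1 at 0.28 (SE 0.08), FBXO22 at -0.13 and SCO2 at 0.10. The list written for secreted and surface proteins also holds genes of proteins that are neither, PTP4A1 among them. Its 13 measured targets had 0 calls, 5 genes at an unadjusted p under 0.05 and a median of 0.16. The phosphatase gene PTP4A1 was at 0.65 (SE 0.12, adjusted p = 0.0627), the growth factor-binding protein gene IGFBP3 at 0.51 (SE 0.12) and EPHA2 at 0.32 (SE 0.21). The 7 repair targets had 0 calls, 1 at an unadjusted p under 0.05 and a median of 0.04 (-0.022 without KHSRP siRNA replicate 1 and 0.089 without KHSRP siRNA replicate 3), with PCNA, the sliding clamp of DNA polymerases, at 0.29 (SE 0.19), GADD45A at 0.20 (SE 0.10) and ASCC3 at 0.12.

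**Figure D4:**
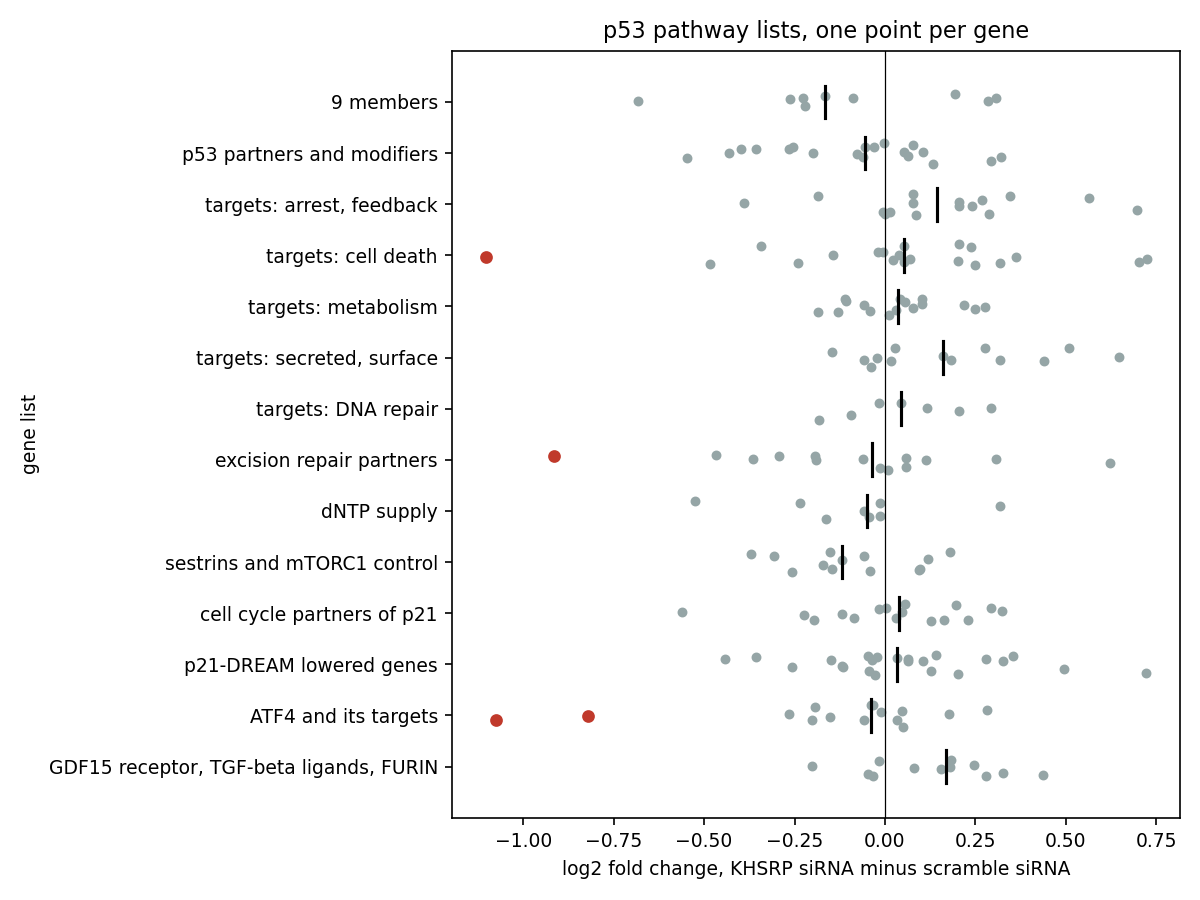
Log2 fold change, KHSRP siRNA minus scramble siRNA (horizontal axis), of every measured gene of 14 lists, with grey points for genes that did not pass limma's adjusted threshold, red points for the called ones and a black line at each list's median. The 4 red points are TNFRSF10D, DDB1, PSAT1 and VLDLR, all below 0, and list medians lie between -0.17 and 0.17.

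The genes of proteins that p53 and p21 act with gave no call. Of 19 measured genes of p53 partners and modifiers none was called by limma and 6 had an unadjusted p under 0.05 (1 fitted higher and 5 lower). Over all tested genes 14.4% had such a p (8.51% higher and 5.89% lower), or 23.8% among genes above the background level. Log2 fold changes in this list ran from -0.55 to 0.32. The median of the 19 was -0.06 (-0.098 without scramble replicate 1 and -0.012 without KHSRP siRNA replicate 3). USP7, which removes ubiquitin from MDM2 and p53, read 11.46, 11.75 and 11.36 against 11.07, 11.24 and 11.19 (log2 fold change -0.36, SE 0.12, adjusted p = 0.229). RPL11, a ribosomal protein that can bind MDM2, was at 0.13 (SE 0.08), and the checkpoint kinase gene CHEK1 at 0.06 (SE 0.09). Of 16 genes around p21, which are cyclins, their kinases and inhibitors, the clamp PCNA and the retinoblastoma family, 0 were called and 2 had an unadjusted p under 0.05. CDK4 read 15.41, 15.40 and 15.59 against 15.19, 14.89 and 14.65 (-0.56, SE 0.14, adjusted p = 0.133), and CDK2, the classical kinase that p21 inhibits, was at -0.08 (SE 0.10), with CCND1 and CCNA2 at 0.13 and -0.12. The median of these genes was 0.04 (0.082 without scramble replicate 2 and 0.0035 without KHSRP siRNA replicate 1).

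Genes that p53 is known to lower through p21 and the DREAM repressor complex had no common direction. Of 23 measured, 0 were called by limma and 7 had an unadjusted p under 0.05 (4 fitted higher and 3 lower). Over all tested genes 14.4% had such a p, or 23.8% among genes above the background level. Of the 23, 12 were fitted above 0, where 55.0% of all tested genes were. The median was 0.03 (-0.0099 without scramble replicate 2 and 0.079 without scramble replicate 1). The helicase subunit gene MCM6 was at -0.44 (SE 0.12, adjusted p = 0.150), the mitotic cyclin gene CCNB1 at 0.20 (SE 0.11, adjusted p = 0.456) and the kinetochore gene CENPF at 0.28 (SE 0.09, adjusted p = 0.237). Beside these, CDKN1A itself overlapped between the groups.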

How the data were processed

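Total RNA of 6 SW480 cultures was amplified, biotin-labelled and put on Affymetrix arrays, per the labels' protocols. The authors deposited log2 intensities of 70523 rows. Per the submitters' processing notes they used Affymetrix Expression Console, RMA and Transcriptome Analysis Console with hg19, and no version is given in these sources. Array maxima from 19.72 to 19.93 are higher than RMA is thought to give alone, so a further transform is possible, and RMA can compress differences of dim genes. Arrays carry no depth, so precision is limited by how many there are.

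Gene names were taken from the platform annotation (23781 rows with 1 symbol, 1543 with several, 45199 unnamed here), with symbols updated through RefSeq. The brightest row of each gene over all 6 arrays was used. KHSRP, on a row with 2 symbols, was kept, giving 22412 genes. The comparison used limma 3.58.1 under R 4.3.3 (no trend, not robust) and Benjamini-Hochberg adjustment over all genes, two-sided. The code was tested on simulated data. The labels call the 3 arrays of a group biological replicates, and nothing more is said of separate cultures.

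The members and lists were chosen with earlier results of these data known. The text names all members, fixed partners, and per list the called genes or, where fewer than 2 were called, the 3 brightest. Genes with no row of 1 symbol were not analysed here. The alternatives were a replicate block, quantile normalization again, median centring, genes above the median level, an intensity trend with a robust prior, array weights, the mean of a gene's rows, rows with several symbols, a covariate for array medians, and each array left out.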

Additional observations from a re-analysis of the deposited data

How the results depend on the processing

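No member gene changed sign or passed limma's adjusted threshold in any of the 15 alternatives (14 for GDF15, which has no value among genes above the median level). The kept sign is only in part a check. The replicate block, the level filter, the trend with a robust prior and the settings on rows left each member's difference unchanged. Leaving out 1 array cannot reverse a member whose groups did not overlap. The number of called genes over all genes did not hold in most of the alternatives. From 170 (114 higher and 56 lower) it went to 32 after quantile normalization again (11 and 21), to 0 after median centring, with an intensity trend and robust prior or with a covariate for array medians, to 433 among genes above the median level (270 and 163) and to 704 with array weights (402 and 302). With 1 array left out it ran from 0 to 329 (0 to 229 higher and 0 to 100 lower). Genes at an unadjusted limma p under 0.05 ran from 2372 to 4154 over the alternatives. With the replicate number as a block there was 1 call (0 higher and 1 lower), and MDM2 had an adjusted p of 0.0995. Deviations from the group means of same-numbered arrays correlated at 0.16, 0.06 and -0.08, and 3 of 6 arrays correlated best with their own number, so the numbers were not taken to pair the arrays.

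List medians moved by more than the spread between replicates in these cases. After quantile normalization again the excision repair partners were at -0.076, cell cycle partners of p21 at 0.00996, the ATF4 list at -0.086 and the GDF15 and TGF-beta list at 0.12. Among genes above the median level, cell death targets were at 0.13, the secreted and surface list at 0.28, the ATF4 list at -0.10 and the GDF15 and TGF-beta list at 0.28. With array weights, the ATF4 list was at -0.11 and the GDF15 and TGF-beta list at 0.12, and with the covariate for array medians the sestrin list was at -0.036. With 1 array left out, medians ran from -0.23 to -0.13 for the members, -0.12 to 0.0067 for excision repair partners, -0.16 to -0.040 for nucleotide supply, 0.0035 to 0.082 for cell cycle partners of p21, -0.093 to -0.036 for the ATF4 list and 0.11 to 0.19 for the GDF15 and TGF-beta list. The medians of the metabolic, repair and p21-DREAM lists also changed sign in at least 1 alternative (lowest -0.014, -0.022 and -0.0099). The cause was not tested.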

Other observations

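GDF15 and SESN2 are known to be induced by ATF4 as well as by p53. Of 15 measured genes of a list of ATF4 and its targets, 2 fell in the arrays labelled KHSRP siRNA and none rose by limma. Over all tested genes 0.25% were called lower and 0.509% higher, and 55.0% were fitted above 0. The list was written with earlier results of these data known, so its count is a description. VLDLR, a lipoprotein receptor gene, read 8.93, 8.92 and 8.89 with scramble siRNA and 8.27, 8.15 and 7.85 with KHSRP siRNA, a log2 fold change of -0.82 (SE 0.12, adjusted p = 0.0473, called in 5 of 15 alternatives). PSAT1, an enzyme gene of serine synthesis, was at -1.08 (SE 0.11, adjusted p = 0.0438, called in 6 of 15 alternatives). Both calls held without KHSRP siRNA replicate 1 (0.0351 and 0.0312) and were lost without any other single array (0.0757 to 0.164 and 0.0585 to 0.149). The list's median was -0.04, with 5 of 15 fitted above 0, ATF4 among them at 0.28 (SE 0.16, adjusted p = 0.523).

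Of 12 measured genes of the GDF15 receptor, TGF-beta family ligands and FURIN, a protease that cleaves such ligands, limma called 0. BMP4 and FURIN had an unadjusted p under 0.05, and FURIN lay under the background level (4.19 and 4.44). Over all tested genes 14.4% had such a p, and 55.0% were fitted above 0. The median was 0.17 with 8 of 12 fitted above 0, and 5 of 12 lay under the background level in both groups, the receptor gene GFRAL among them (3.35 and 3.43). BMP4 had means of 6.52 ± 0.16 and 6.84 ± 0.14 (SD, n = 3) with no overlap (0.33, SE 0.11, limma adjusted p = 0.253), while TGFB1, at 0.44 (SE 0.23), and BMP7, at 0.18 (SE 0.11), overlapped between the groups.

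Over the 6 arrays, the genes above the median level with the pattern most like MDM2 were TBXT, PDIA6 and WWP1 (Pearson r 0.995, 0.990 and 0.983), and those most like CDKN1A were NDUFB7, BET1L and LAPTM4A (0.984, 0.981 and 0.977). Among 11205 genes compared, 132 had r over 0.9 with MDM2 and 70 with CDKN1A. With 6 arrays in 2 groups such values are a description of these arrays.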
